A study of Mus musculus with 16 samples.

Results

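Oral Escherichia coli Nissle was set against oral buffer in mice whose colitis was induced with dinitrobenzene sulfonic acid (DNBS). The comparison used 8 of the 16 samples of the series: 4 of colonic mucosa from mice given DNBS into the rectum and Nissle by mouth (DNBS_Nissle), and 4 from mice given DNBS into the rectum and phosphate-buffered saline (PBS) by mouth (DNBS). Samples were assigned by their labelled treatments, and all genes of the panel entered, 584 in all, of which 474 were tested. Both groups thus carry the DNBS injury and differ in the oral treatment. The labels say Nissle, read here as the probiotic strain of that name. Its dose and timing, and the strain, sex and age of the mice, are not given in the sources used here. For context, 4 healthy samples had PBS by both routes, and 4 samples had DNBS with an oral treatment that the labels abbreviate as CEC.

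RNA was measured by real-time PCR on an OpenArray inflammation panel of TaqMan assays, each reporting the cycle at which its fluorescence crosses a threshold (Ct). To obtain a level, the Ct of a gene was subtracted from the average Ct of a set of reference genes, which gives −ΔCt. Levels are in log2 units: more RNA gives a higher value, and 1 unit is about a doubling. A Ct above 28 counted as not detected. The design text speaks of RNA from each mouse being combined, while samples are numbered one by one, so it is not settled if each sample holds RNA of 1 mouse or of several, and the p-values measure only the spread between these samples.

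E. coli Nissle is a probiotic strain that has been used in people with ulcerative colitis. DNBS is a hapten: it binds to colonic proteins, and with the ethanol that usually carries it, it provokes an acute, neutrophil-rich inflammation. In such tissue, injured epithelium and macrophages release interleukin 1, interleukin 6 and CXC chemokines, neutrophils arrive through activated vessels, and calprotectin, the S100a8 and S100a9 dimer, accumulates. Adipokines and lipid carriers come largely from fat cells and macrophages, including the mesenteric fat that lies against the bowel wall.

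Of 648 assays, 553 to 563 were detected in DNBS samples and 550 to 564 in DNBS_Nissle samples. In DNBS_Nissle sample 1, 61 Ct values equalled the mean Ct of the other 3 samples of its group, as did 12 in sample 4, and these were taken as filled-in gaps. Digits also appear to have been lost from the table: the pair 40 occurs 15 times after the decimal point, against 329 to 585 times for every other pair, and 532 values in the series have 4 or fewer decimals. Such a loss changes a Ct by less than 1 cycle, and the original values could not be recovered. The epithelial keratin gene Krt8 was read in all 8 samples, at 4.42, 2.99, 4.26 and 4.20 in DNBS samples 2, 3, 4 and 5 and at 3.61, 0.71, 4.14 and 4.07 in DNBS_Nissle samples 1, 4, 5 and 7. DNBS_Nissle sample 4 was thus the lowest in Krt8, and it held the lowest of the 8 values in 130 of the 444 genes read in all 8 samples. DNBS sample 3 stood apart in the other direction for cytokines, as given below. The reference gene Ywhaz had a Ct of 25.4, 24.5 and 24.8 in DNBS samples 2 and 4 and DNBS_Nissle sample 5, and between 17.9 and 18.8 in the other 5, which lifts every level in those 3 samples. Of 8 epithelial markers on the panel 7 were tested, and the skin keratin Krt1 was detected in 0 of the 8 samples. Of the markers of muscle and stroma, 0 were on the panel.

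No gene passed the test. Among 474 genes, 0 (0%) had a limma adjusted p under 0.05 and the lowest adjusted p was 0.995. Before adjustment the p of 7 genes (1.48%) was under 0.05, 2 higher with Nissle (0.422%) and 5 lower (1.05%). The 4 values of one group lay wholly above or below those of the other in 5 genes (1.05%): Lrp8 was higher with Nissle (0.211% of genes), and Apoe, Fabp4, Retn and Tnfrsf18 were lower (0.844%). Of the 5 genes, 4 belong to the list of lipid transport genes and adipokines. The differences of all genes had a median of −0.17, with 152 (32.1%) above 0 and 322 (67.9%) below. That lean follows the scale: without Ywhaz and Rplp2 in the reference the median was −0.06 with 206 genes higher and 268 lower, and with Gapdh alone it was 0.06 with 255 higher and 219 lower.

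The lipid carriers and adipokines showed the clearest separation between the groups. Apoe, the apolipoprotein by which macrophages export cholesterol, was at 1.76, 1.19, 1.57 and 1.65 in DNBS samples 2, 3, 4 and 5. With Nissle it was at 0.81, −1.51, 0.68 and 0.33 in samples 1, 4, 5 and 7. Every Nissle value was below every DNBS value, and sample 4 lay far under the other Nissle samples. The mean was 1.54 ± 0.25 with DNBS and 0.08 ± 1.08 with Nissle (SD, n = 4 per group), a difference of −1.47 ± 0.47 (SE; limma adjusted p = 0.995), or 2.76-fold lower, and −0.94 without DNBS_Nissle sample 4. Healthy samples averaged 0.64.

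Fabp4, the fatty acid binding protein of adipocytes and macrophages, was at 1.25, 1.74, 2.16 and 0.90 with DNBS alone. The Nissle samples had −0.20, 0.16, 0.46 and −0.28. The groups did not overlap, and the difference was −1.48 ± 0.56 (SE; limma adjusted p = 0.995), with a 95% confidence interval from −2.66 to −0.29. Its 2 assays gave −1.66 and −1.29 separately. Leaving out 1 sample at a time gave −1.68 to −1.26.

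Retn, the adipokine resistin, was at −4.48, −3.64, −3.15 and −4.79 in DNBS samples and at −6.81, −5.20, −4.89 and −6.66 in DNBS_Nissle samples. The highest Nissle value lay just under the lowest DNBS value. Retn differed by −1.88 ± 0.76 (SE; limma adjusted p = 0.995), or 3.67-fold, and by −2.21 to −1.57 when 1 sample was left out. Healthy samples averaged −3.40, so that the Nissle mean of −5.89 ± 0.99 (SD, n = 4) was also below the healthy one, a difference that was not tested here.

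Other fat-cell genes lay lower with Nissle without separating the groups. Adipoq, the adipokine adiponectin, was at −3.68, −2.74, −1.92 and −3.07 against −5.50, −3.76, −3.49 and −4.24. DNBS sample 2 was the single DNBS sample within the Nissle range, and the difference was −1.40 ± 0.84 (SE). Cfd, the complement protease adipsin made by adipocytes, was at −2.19, −2.13, −0.87 and −1.81 against −3.01, −2.67, −2.16 and −3.79, a difference of −1.16 ± 0.75. DNBS_Nissle sample 5 was within the DNBS range there, and the value of sample 1 was filled in. Lep, the gene of leptin, was detected in 3 of 4 DNBS samples and 0 of 4 Nissle samples. The adipocyte regulator Pparg did not share this pattern: it averaged −1.90 ± 0.88 and −1.91 ± 0.27 (SD, n = 4 per group), and its difference of −0.01 ± 0.38 had an interval from −0.81 to 0.79.

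**Figure D1:**
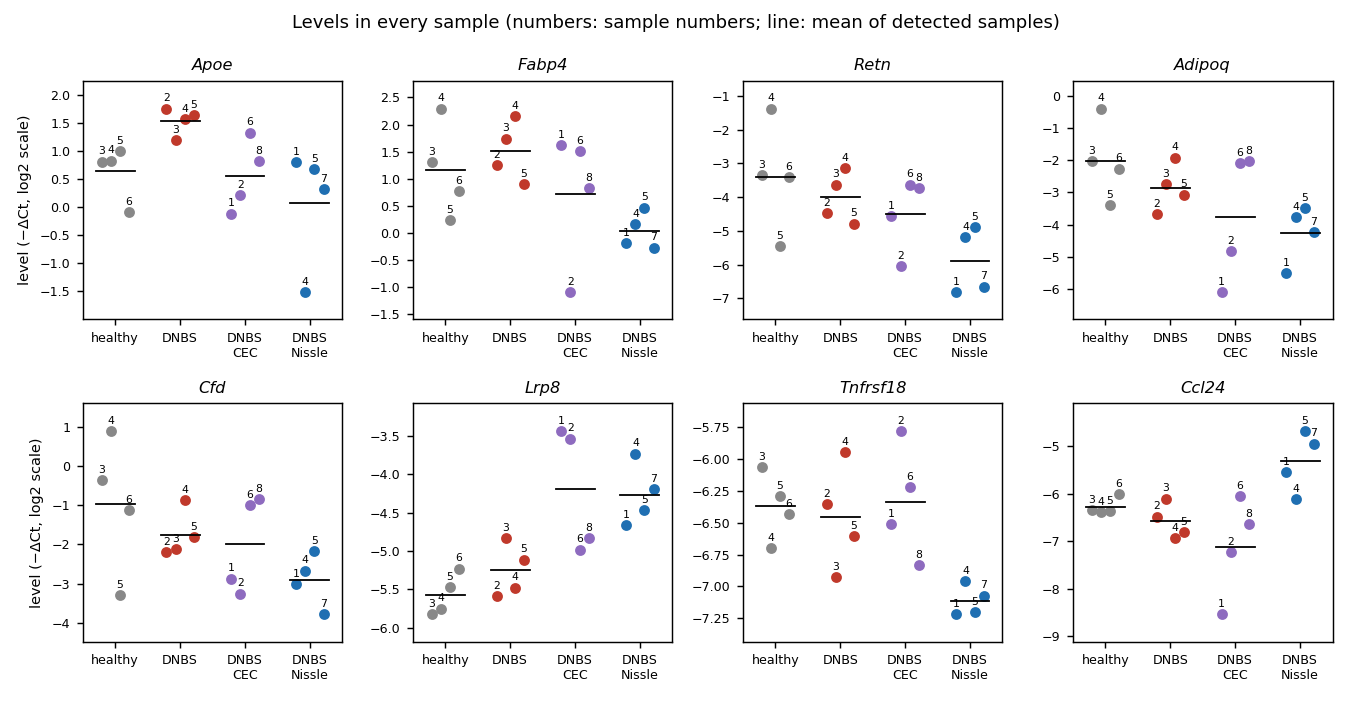
Levels (−ΔCt, log2 scale) of 8 genes in every sample of the 4 groups, with points numbered by sample and a line at the mean of the detected samples. In Apoe, Fabp4, Retn and Tnfrsf18 all DNBS_Nissle points lie below all DNBS points, in Lrp8 all lie above, and in Adipoq, Cfd and Ccl24 the groups overlap or meet.

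Of 5 tested adipocyte markers, 5 had a lower mean with Nissle, with a median of −1.40 against −0.17 for all genes tested, and none passed. The count includes Pparg at only −0.01, and without Ywhaz and Rplp2 in the reference 4 markers were lower and 1 higher. The median kept its sign under each choice of reference genes and normalization tried, and was −1.62 to −1.09 when 1 sample was left out. The mean level over the 5 markers was −2.22, −1.94, −0.91 and −2.14 in DNBS samples 2, 3, 4 and 5 and −3.49, −2.72, −2.32 and −3.41 in DNBS_Nissle samples 1, 4, 5 and 7. In bulk mucosa, fewer cells of a type and less RNA per cell cannot be told apart. Whether the amount of attached fat differed between the dissected samples was not tested.

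The wider list of lipid transport genes and adipokines shares Adipoq, Fabp4, Retn, Pparg and Lep with those markers. Of its 10 tested members, 8 were lower with Nissle and 2 higher, with a median of −1.08. In 4 of the 10 the groups did not overlap: Apoe, Fabp4 and Retn were lower with Nissle and Lrp8 was higher. These 4 are themselves most of the 5 genes (1.05%) that separated among all genes tested. The list was chosen with earlier results of these data known, so the 2 shares are not independent. The same 4 had a limma p under 0.05 before adjustment. Clu, the gene of the lipid-binding chaperone clusterin, was at 4.15, −0.17, −0.10 and 1.46 against −0.07, −0.66, 1.11 and −0.26. DNBS sample 2 was far above the rest, the value of DNBS_Nissle sample 1 was filled in, and the difference of −1.31 ± 0.75 was −0.37 without DNBS sample 2. Apoa1, the main protein of high-density lipoprotein, had a difference of −0.85 ± 0.72, with DNBS_Nissle sample 4 at −8.47.

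Lrp8, which encodes a receptor for apolipoprotein E and reelin, lay in the opposite direction. It was at −5.59, −4.84, −5.48 and −5.11 with DNBS alone and at −4.66, −3.73, −4.47 and −4.20 with Nissle. The groups did not overlap, though DNBS sample 3 and DNBS_Nissle sample 1 were close. The difference was 0.99 ± 0.38 (SE; limma adjusted p = 0.995), or 1.98-fold, and it was 0.81 to 1.13 when 1 sample was left out. Healthy samples averaged −5.57 and DNBS_CEC samples −4.20.

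The choice of reference changed which genes separated. Without Ywhaz and Rplp2, Ccl24, Lrp8 and Tacr1 separated as higher with Nissle, Apoe, C1qa, Fabp4 and Retn were among those that separated as lower, and Tnfrsf18 did not separate. With the global mean there were 7, with Apoe and Fabp4 among them and Retn and Lrp8 not. With Gapdh alone Fabp4, Retn, Ccl24 and Lrp8 separated and Apoe did not. Leaving out 1 sample cannot make separated groups overlap. Fits without single samples therefore could not test the separation of Lrp8, Apoe, Fabp4, Retn and Tnfrsf18.

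Tnfrsf18, the costimulatory receptor GITR of regulatory and activated T cells, was at −6.36, −6.93, −5.95 and −6.61 with DNBS alone. With Nissle it was at −7.22, −6.96, −7.20 and −7.07, where the value of sample 1 was filled in. The groups did not overlap, but by a small margin, and the difference was −0.65 ± 0.30 (SE; limma adjusted p = 0.995) and −0.26 with quantile normalization. Tnfrsf25, a death receptor of T cells, was detected in 4 of 4 Nissle and 1 of 4 DNBS samples. Its Ct was 27.11, 27.36, 27.96 and 27.85 with Nissle and 29.34, 27.65, 28.42 and 29.45 with DNBS. These lie close to the limit of 28, and the gene was at least 1.04-fold higher with Nissle.

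The eosinophil chemokine Ccl24 was the gene with the second lowest p. Its values were −6.48, −6.10, −6.94 and −6.80 with DNBS and −5.54, −6.10, −4.68 and −4.94 with Nissle. DNBS_Nissle sample 4 met the highest DNBS value, and the other 3 Nissle samples were above it. The difference was 1.26 ± 0.46 (SE; limma adjusted p = 0.995), or 2.40-fold, and 1.05 to 1.52 when 1 sample was left out. Ccr3, the receptor of this chemokine, was read at −4.64, −5.10, −4.97 and −5.84 with DNBS and at −6.91, −3.12 and −6.04 in Nissle samples 4, 5 and 7, a difference of −0.22 ± 0.95. Of the 4 tested mast cell and eosinophil markers, which include Ccr3, 4 had lower means with Nissle (median −0.27). Il4, Il5 and Il13, the main type 2 cytokines, were detected in 0 of the 8 samples. Of 14 tested type 2 genes 9 were higher with Nissle, with a median of 0.12, and Il1rl1, the receptor of interleukin 33, differed by 1.05 ± 0.76.

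Several chemokine receptors of mucosal lymphocytes and dendritic cells were below the DNBS range in 3 of the 4 Nissle samples. Ccr6, which guides cells of the lymphoid follicles and the type 3 response, was at −4.53, −6.04, −5.06 and −6.12 with DNBS and at −7.65, −8.41, −4.75 and −7.05 with Nissle. DNBS_Nissle sample 5 was within the DNBS range and the other 3 were below it. The difference was −1.53 ± 0.70 (SE; limma adjusted p = 0.995), −2.27 without that sample and −0.90 with quantile normalization.

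The gut-homing receptor Ccr9 was likewise below the DNBS range in 3 Nissle samples, while sample 5 was above it, at −4.16, −5.22, −4.61 and −5.19 against −7.68, −6.90, −3.95 and −6.14, a difference of −1.38 ± 0.70. Xcr1, a receptor of cross-presenting dendritic cells, was at −3.63, −5.58, −3.84 and −5.42 against −6.77, −7.28, −3.59 and −6.99. DNBS_Nissle sample 5 stood apart from its group in Xcr1, and the difference of −1.54 ± 0.76 was −2.40 without it. Cxcr6, a receptor of tissue-resident T cells, had a difference of −1.25 ± 0.66 and −1.95 without sample 5, and Cx3cr1, a receptor of intestinal macrophages, −0.79 ± 0.47 and −1.25. Cxcr6 was named after its values were seen. Sample 5 is the Nissle sample whose Ywhaz Ct was high. With Ywhaz and Rplp2 out of the reference Ccr6 differed by −1.43, Ccr9 by −1.27 and Xcr1 by −1.44.

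Markers of T cells and B cells gave little separation. Of 5 T cell markers 1 was higher with Nissle (Ctla4) and 4 lower, with a median of −0.13, whose sign changed with the reference. Of 3 B cell markers 3 were lower, with a median of −0.39 and Cd180 the lowest at −0.83 ± 0.46. Among 11 lymphoid homing chemokines and receptors 1 was higher, the epithelial chemokine Ccl28 at 0.34 ± 0.38, and 10 were lower, with a median of −0.19, whose sign also changed with the reference. Of 8 myeloid markers 3 were higher, with a median of −0.18 that changed sign likewise.

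The neutrophil chemokines and acute cytokines had higher means with Nissle, but wide spreads in both groups. Cxcl1, Cxcl2 and Cxcl3 encode chemokines that draw neutrophils through Cxcr2, and Il6 encodes a cytokine of the acute response. All 4 are textbook targets of nuclear factor kappa B, and their promoters, chosen after the values were seen, are shown since DNBS_Nissle sample 1 and DNBS sample 3 were among the 3 highest samples in each. The 120 bases before the start of each gene are given 5′ to 3′ on the plus strand from RefSeq (GRCm38.p6). Capitals mark matches to GGGNNTTTCC on either strand.
Cxcl1, chr5:90891125-90891244: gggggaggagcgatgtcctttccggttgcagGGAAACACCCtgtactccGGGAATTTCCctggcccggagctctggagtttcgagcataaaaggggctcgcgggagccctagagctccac
Cxcl2, chr5:90903779-90903898: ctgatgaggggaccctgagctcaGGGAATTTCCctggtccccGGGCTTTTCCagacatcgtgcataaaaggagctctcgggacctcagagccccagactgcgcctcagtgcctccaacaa
Cxcl3, chr5:90785981-90786100: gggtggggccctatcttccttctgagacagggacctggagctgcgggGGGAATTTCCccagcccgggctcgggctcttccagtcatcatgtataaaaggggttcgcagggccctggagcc
Il6, chr5:30012994-30013113: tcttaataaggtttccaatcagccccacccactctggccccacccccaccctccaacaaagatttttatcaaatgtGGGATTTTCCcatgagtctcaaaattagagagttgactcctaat

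Counted from the gene start, the matches began at −89 and −71 in Cxcl1, −97 and −78 in Cxcl2, −73 in Cxcl3 and −44 in Il6. In windows of 250 bases before the start, 464 of 32851 promoter windows (1.41%) held the motif. Of the 370 tested panel genes with a promoter, 22 (5.95%) had it in at least 1 of their windows. The first share counts windows and the second counts genes, so the shares are not like for like. Of these 22 genes, 8 had a higher mean with Nissle and 14 a lower one, among them Bmpr1b at −1.05 and C3ar1 at −0.76. A match is a description of letters and not a measured site.

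Cxcl1 was at −4.11, −1.53, −4.14 and −4.28 in DNBS samples 2, 3, 4 and 5 and at −0.07, −2.77, −2.89 and −4.28 in DNBS_Nissle samples 1, 4, 5 and 7. DNBS sample 3 stood above its group, and DNBS_Nissle sample 1 was the highest of the 8. The difference of 1.02 ± 0.91 (SE; limma adjusted p = 0.995) was 1.68 without DNBS sample 3 and 0.20 without DNBS_Nissle sample 1.

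For Cxcl2 the values were −2.68, 1.18, −3.92 and −4.71 against −0.36, −3.88, 0.83 and −3.80, a difference of 0.73 ± 1.48. It turned to −0.15 without DNBS_Nissle sample 5 and was 1.97 without DNBS sample 3. Cxcl3 was at −4.22, 0.20, −4.51 and −4.98 against −0.82, −2.68, −0.52 and −4.12, a difference of 1.34 ± 1.29. In both genes DNBS sample 3 and Nissle samples 1 and 5 were the 3 highest. Without DNBS sample 3, Cxcl3 separated the groups and differed by 2.53. In that fit 27 of 468 genes (5.77%) separated, 13 higher and 14 lower, against 1.05% with all samples. The Cxcl3 difference was 0.81 without DNBS sample 5, 0.83 without DNBS_Nissle sample 5 and 2.03 without sample 7. It was 0.46 without values of 4 or fewer decimals, which those of DNBS sample 4 and DNBS_Nissle sample 5 are.

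Il6 was at −6.15, −2.76, −4.87 and −8.40 with DNBS and at −0.59, −5.06, −3.29 and −6.98 with Nissle. The ranges overlapped, with DNBS_Nissle sample 1 above all DNBS samples, DNBS sample 5 below all Nissle samples, and DNBS sample 3 second highest. Its difference was 1.56 ± 1.28 (SE), with a 95% interval from −1.22 to 4.34. The assay used gave 1.56, and the 2 assays not used gave 1.0 and 0.13. It was 0.43 without DNBS_Nissle sample 1.

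Il1a and Il1b, the interleukin 1 cytokines, had the same 3 highest samples. Il1a was at −7.00, −1.79, −5.95 and −7.80 with DNBS and at −1.94, −4.33, −1.06 and −6.82 with Nissle. Its difference of 2.10 ± 1.38 was the largest of all genes tested in the higher direction, with an interval from −0.90 to 5.09. It was 3.38 without DNBS sample 3, 1.37 without DNBS sample 5, 1.27 without DNBS_Nissle sample 5 and 3.19 without sample 7. Il1b was at −2.81, 1.50, −3.08 and −3.45 against 0.10, −2.21, 0.90 and −2.46, a difference of 1.05 ± 1.03. It was 2.20 without DNBS sample 3, where the groups no longer overlapped, as in 5.77% of genes, and 0.44 without DNBS_Nissle sample 5. Healthy samples averaged −5.67 in Il1b, below all 8 values. Casp1, the protease that matures interleukin 1, differed by −0.32 ± 0.34, and Nlrp3, a sensor that activates it, by 1.57 ± 0.98. Nlrp3 was at 2.57 without DNBS sample 3, 0.88 without DNBS sample 5, 2.41 without DNBS_Nissle sample 7 and 0.97 without sample 5, whose value has 4 or fewer decimals. Of 13 tested genes of the interleukin 1 family 9 were higher, with a median of 0.11.

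Calprotectin genes were even among Nissle samples and uneven among DNBS samples. S100a8 was at −0.67, 4.77, −1.63 and 0.74 with DNBS and at 2.42, 2.23, 2.62 and 1.23 with Nissle. The Nissle samples lay within 1.23 to 2.62, between DNBS sample 3 above and the other DNBS samples below. The difference was 1.32 ± 1.51, and 2.64 without DNBS sample 3. S100a9 was at −0.89, 4.47, −2.44 and 0.20 against 2.24, 0.61, 2.52 and 0.96, a difference of 1.24 ± 1.43, and 2.62 without DNBS sample 3. The healthy means of −5.69 and −5.90 were far below both groups.

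**Figure D2:**
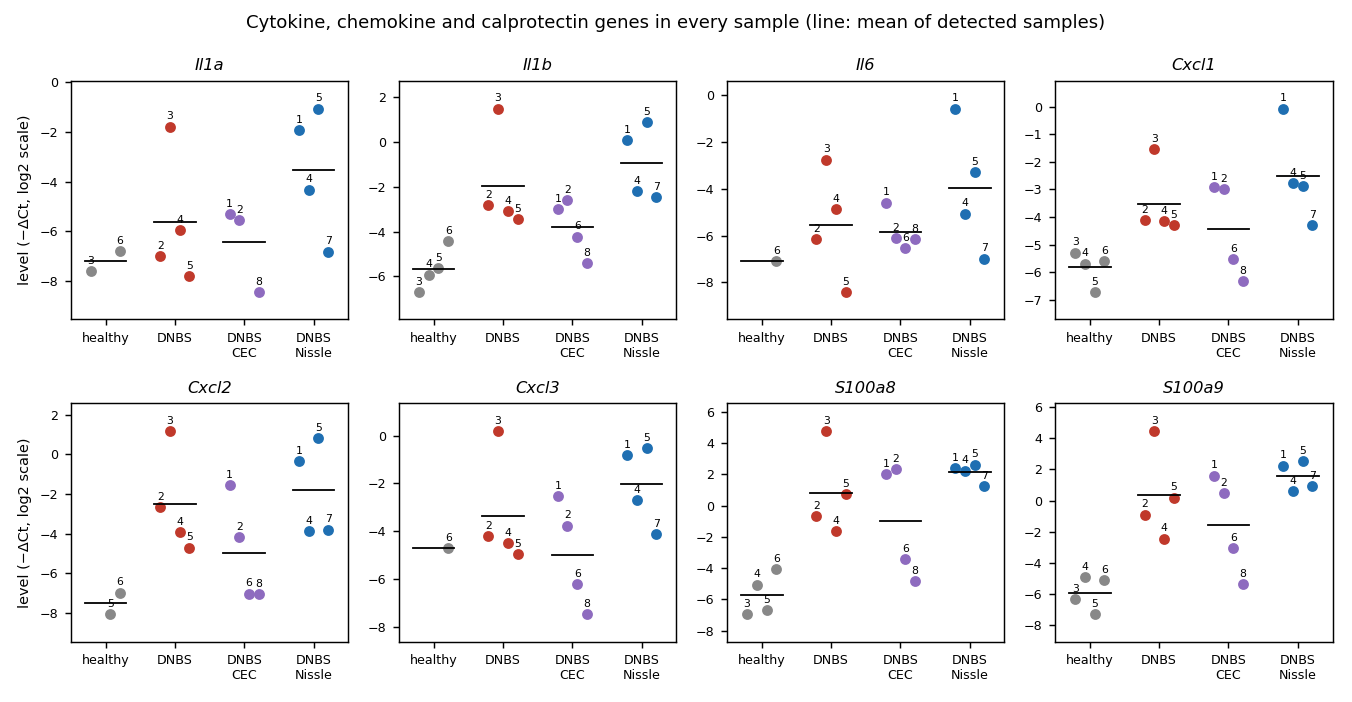
Levels (−ΔCt, log2 scale) of 8 cytokine, chemokine and calprotectin genes in every sample, with points numbered by sample and a line at the mean of the detected samples. DNBS sample 3 is the highest DNBS point in each of them, and DNBS_Nissle samples 1 and 5 hold the highest Nissle point.

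Other neutrophil genes did not follow one direction. Il8rb (Cxcr2), the receptor of these chemokines, had a difference of 1.17 ± 0.80 and Cxcl5, an epithelial neutrophil chemokine, 1.11 ± 0.71. Il8ra was the lowest of the tested recruitment and granule genes at −0.98 ± 0.82, and −1.62 without values of 4 or fewer decimals. Ltf, a granule protein, was at −1.0, −1.55, −5.04 and −2.85 against −3.58, −3.09, −4.05 and −3.18, a difference of −0.87 ± 0.96 with the value of DNBS_Nissle sample 1 filled in, and the granule gene Camp differed by −0.25 ± 0.84. Ela2 and Prtn3, granule proteases made in the marrow, were detected in 0 of the 8 samples. Of 14 tested genes of neutrophil recruitment and granules, 10 were higher with Nissle, with a median of 0.87 that was 1.77 without DNBS sample 3 and 0.22 without DNBS_Nissle sample 1. Of 7 tested neutrophil markers 4 were higher and 3 lower, with a median of 0.10. That median was −0.27 without DNBS_Nissle sample 1 and 1.42 without DNBS sample 3. The mean level of 6 of these markers ranged from −4.27 to 0.04 in DNBS samples and from −2.51 to −1.48 in Nissle samples.

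Among 13 acute cytokines and induced enzymes 10 were higher with Nissle, and the median was 0.67, or 0.11 without DNBS_Nissle sample 1. The exceptions were Tnf, Nos2 and Hmox1. Tnf was at −3.91, −4.62, −4.65 and −4.57 with DNBS and at −2.78, −7.77, −4.16 and −5.10 with Nissle, so that the Nissle samples spanned the DNBS range on both sides. The difference of −0.52 ± 0.78 turned to 0.42 without DNBS_Nissle sample 4. Nos2, the inducible nitric oxide synthase, was at −0.17, −1.36, −1.96 and −1.91 against −0.58, −3.48, −2.45 and −1.70, a difference of −0.70 ± 0.72. It was −0.23 without DNBS_Nissle sample 4. Hmox1, the haem-degrading enzyme, differed by −0.59 ± 0.55.

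The sharing of high samples was counted after the values were seen. DNBS sample 3 and DNBS_Nissle samples 1 and 5 were the 3 highest of the 8 in 6 of 12 neutrophil genes read in all samples (50%), in 5 of 12 acute genes (41.7%) and in 34 of all 444 genes (7.66%). They come from both oral treatments, 1 given PBS and 2 given Nissle by mouth. Without DNBS sample 3, Cxcl3, Il1b, Il8rb, Osm, S100a8 and S100a9 separated the groups as higher with Nissle. They are among the 27 of 468 genes (5.77%) that separated in that fit, 13 higher and 14 lower. How much of the differences rests on the 3 high samples was not tested.

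Selp, the P-selectin of activated vessels and platelets, was the single endothelial marker tested. It was at −6.37, −2.90, −4.93 and −4.99 with DNBS and at −1.83, −2.95, −4.27 and −4.14 with Nissle. The difference was 1.50 ± 0.71 (SE; limma adjusted p = 0.995), and 0.97 without DNBS sample 2. It was 2.13 without DNBS sample 3, where the groups no longer overlapped, as in 5.77% of genes. The macrophage integrin Itgam differed by −0.94 ± 0.78, and −0.45 without DNBS_Nissle sample 4. Twist1, a transcription factor of mesenchymal cells, differed by −0.87 ± 0.44, and Ly86, a partner of the B cell and macrophage receptor Cd180, by −0.99 ± 0.50, or −0.41 without DNBS_Nissle sample 4. With Selp, Xcr1 and C1qa they complete the 12 genes of lowest p.

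Interferon-induced chemokines were higher in some Nissle samples. Cxcl10 was at −4.12, −3.74, −2.90 and −4.80 against 1.13, −3.05, −2.90 and −4.39: sample 1 was far above all others, and the difference of 1.59 ± 0.94 was 0.44 without it. Cxcl9, named after its values were seen, was at −3.49, −5.53, −3.12 and −4.46 against −1.85, −1.84, −3.03 and −3.99, a difference of 1.47 ± 0.81. The receptors Ifngr1 and Ifngr2 differed by −0.68 and −0.48, with Ifngr1 at 0.14 without DNBS_Nissle sample 4. Of 19 tested interferon and type 1 genes 5 were higher, with a median of −0.19, whose sign changed with the reference.

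Genes read in one group and hardly in the other numbered 7 of 568 (1.23%), none with an adjusted p below 1 in Fisher's exact test. Cxcl11, which shares its receptor with Cxcl9 and Cxcl10, was detected in 4 of 4 Nissle samples, at Ct 24.2, 26.0, 26.8 and 27.2, where the second of these values was filled in. The DNBS samples had Ct 28.5, 28.7, 28.4 and 28.2, all just over the limit, so the gene was at least 3.16-fold higher with Nissle. Interferon gamma (Ifng) was read in 4 Nissle samples and 1 DNBS sample, at Ct 23.4, 27.4, 27.7 and 25.8 with Nissle and 28.2, 28.6, 29.1 and 26.6 with DNBS, at least 2.42-fold. A second Ifng assay, not used, was detected in 1 Nissle sample and 0 DNBS samples. Both sets of DNBS wells did amplify, and with a limit of Ct 30 neither gene counted as a detection difference.

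The remaining detection differences were of another kind. Epo (erythropoietin) was at Ct 26.6, 25.8, 24.8 and 28.4 with DNBS and at 40, no amplification, in all 4 Nissle wells. Il1f10, of the interleukin 1 family, was at Ct 24.5, 24.8, 23.7 and 24.9 with DNBS, the first of them filled in, and at 40 in 3 Nissle wells with sample 5 at 23.5. As bounds these were at least 3.97-fold and 6.49-fold lower with Nissle, provided that the wells did not fail, which cannot be told from a Ct of 40. These were the 2 that remained with a limit of Ct 30. Fgf23 was read in 3 Nissle samples against 1 DNBS sample, Tnfrsf25 in 4 against 1, and Lep in 0 against 3. For Lep the Nissle Ct values were 28.8, 28.8, 29.1 and 28.6, the first and second of them filled in, and the bound was 1.50-fold.

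Some type 3 and regulatory cytokines were not detected in every sample. Il17a was detected in 4 of 4 Nissle samples, at −5.01, −7.01, −5.61 and −7.32, and in 2 of 4 DNBS samples, at −6.83 and −6.91. The assay shared by Il22 and Iltifb was detected in 2 Nissle and 3 DNBS samples, and that of Il10 in 0 of the 8. Tgfb1 was at −2.79, −2.79, −2.67 and −3.34 against −3.16, −4.14, −2.22 and −3.15, a difference of −0.27 ± 0.43. Of 6 tested type 3 genes 1 was higher with Nissle, and the median was −0.29. Of 9 tested regulatory genes 4 were higher, with a median of −0.01 that changed sign with the reference.

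Complement and acute phase genes mostly had lower means with Nissle. Of 25 tested, 22 were lower and 3 higher, with a median of −0.49 against −0.17 for all genes. Under the other scalings the median stayed at or below −0.27, and it was −0.70 to −0.33 when 1 sample was left out. The 3 chains of the classical pathway's recognition protein, made chiefly by macrophages, were all on the panel. C1qa was at 0.67, −0.75, −0.17 and −0.71 against −0.79, −1.01, −0.44 and −1.74, a difference of −0.76 ± 0.38, and −0.45 without DNBS sample 2. C1qb differed by −1.04 ± 0.57 (−0.41 without DNBS_Nissle sample 4) and C1qc by −0.49 ± 0.38. The anaphylatoxin receptor C3ar1 differed by −0.76 ± 0.42, while the central component C3 differed by −0.25 ± 0.51.

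Serpina1a, the protease inhibitor alpha-1 antitrypsin, had the lowest difference of all genes tested. It was at −2.18, −2.79, −1.55 and −3.78 with DNBS and at −8.53, −3.92, −1.03 and −5.77 with Nissle, a spread of over 7 units among the Nissle samples. The difference was −2.24 ± 1.17, −1.0 without DNBS_Nissle sample 1 and −3.50 without sample 5. Saa1 and Saa3, serum amyloid genes of injured epithelium, differed by −1.09 ± 0.74 and −1.02 ± 1.32. F11r, a junction molecule grouped with these genes by name alone, had the highest difference of the list at 0.34 ± 0.37.

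**Figure D3:**
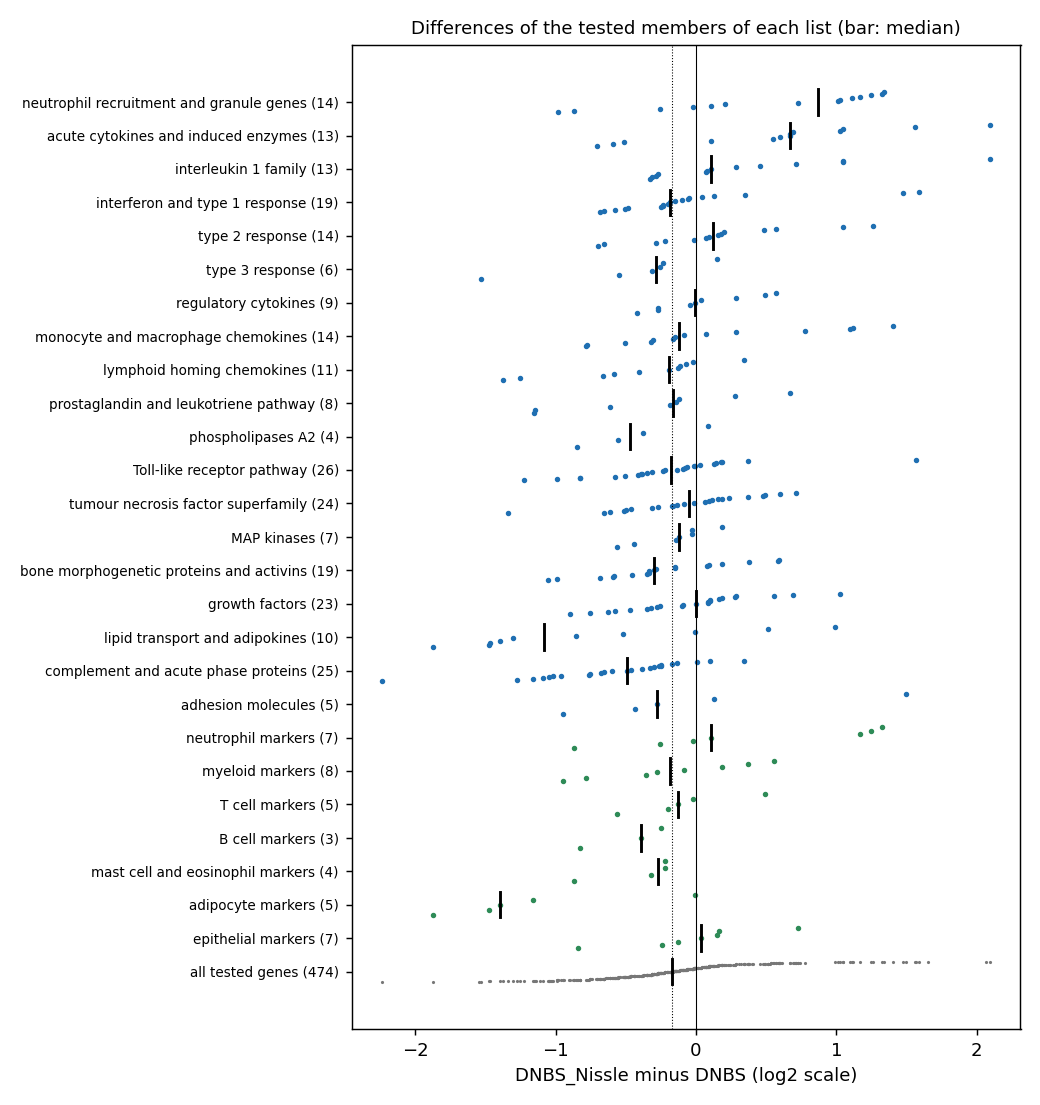
Difference DNBS_Nissle minus DNBS (log2 scale) of each tested member of the gene lists (blue), the cell type marker lists (green) and all 474 tested genes (grey), with a bar at each median and a dotted line at the median of all genes. Adipocyte markers (−1.40) and lipid transport genes (−1.08) lie lowest among the lists of more than 1 gene. Neutrophil recruitment and granule genes (0.87) and acute cytokines (0.67) lie highest among them, while neutrophil markers lie at 0.10.

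Prostaglandin genes differed in direction by enzyme. Ptgs2, the inducible cyclooxygenase, was at −5.24, −1.98, −4.42 and −6.77 against −2.84, −4.46, −2.30 and −6.14, a difference of 0.67 ± 0.91 that was −0.06 without DNBS sample 5. The constitutive Ptgs1 and the prostaglandin E synthase Ptges both differed by −1.15, with SE of 0.74 and 0.73. For Ptges it was −0.33 without DNBS_Nissle sample 4, at −7.33. The secreted phospholipase Pla2g2d differed by −0.84 ± 0.48. Of 8 prostaglandin and leukotriene genes 2 were higher (median −0.16, with a sign that changed with the reference), and of 4 phospholipases A2 1 was higher (median −0.47). In the Toll-like receptor pathway 7 of 26 genes were higher, from Tlr12 at −1.22 ± 0.77 to Nlrp3, and Tlr4, the receptor of bacterial endotoxin, was at −0.86, −1.58, −0.49 and −1.45 against −0.45, −0.53, −1.20 and −1.62, a difference of 0.14 ± 0.46. The monocyte chemokine Ccl2 differed by −0.30 ± 0.72 and the macrophage chemokine Ccl4 by 1.40 ± 1.09, in a list of 14 monocyte and macrophage chemokines with 6 higher and a median of −0.12 that changed sign with the reference.

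Growth and signalling lists were centred near the median of all genes. The 23 growth factor genes had 11 higher (from Fgf10 at −0.90 to Csf3 at 1.03), the 24 tumour necrosis factor superfamily genes 11 higher (from Tnfsf12, in an assay shared with Tnfsf12-tnfsf13, at −1.34 to Tnfrsf9 at 0.71) and the 19 bone morphogenetic protein and activin genes 6 higher (from Bmpr1b at −1.05 to Acvr2b at 0.59). The medians were −0.00, −0.05 and −0.30. The first and second changed sign with the reference, as did the median of −0.12 of the 7 MAP kinase genes, of which 1 was higher, and the last changed sign with quantile normalization. For Csf3 the assay not used gave −0.19, a Ct limit of 30 gave 1.80, and the difference was 0.08 without DNBS_Nissle sample 1 and 1.89 without sample 7. Bmpr1b was at −0.21 without DNBS sample 2 and −1.69 without DNBS sample 3. Of 5 adhesion genes 2 were higher (median −0.28). The 7 epithelial markers had a median of 0.03, from Krt8 at −0.84 to the mucin Muc1 at 0.73, and Krt8 was at −0.03 without DNBS_Nissle sample 4.

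How narrowly a difference was estimated varied by gene. The 95% intervals are per gene and not adjusted for the 474 genes tested, so they do not give the smallest difference that could have passed. The genes with the smallest SE were Dnajc8 at −0.23 ± 0.27, Il13ra1 at 0.18 ± 0.28 and Sdcbp at −0.02 ± 0.28, with 95% intervals from −0.81 to 0.35, −0.41 to 0.76 and −0.61 to 0.57. In 117 genes (24.7%) the whole interval lay within 1 log2 unit of 0, and in 375 within 2. These counts draw on the spread of all 16 samples. With only the 8 compared samples in the fit, 56 genes (11.8%) lay within 1 unit. The median SE was 0.47. The intervals of Il1a, Il1b, Il6, Cxcl1, Cxcl2, Cxcl3, S100a8 and S100a9 each reached past 2 log2 units in the higher direction.

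**Figure D4:**
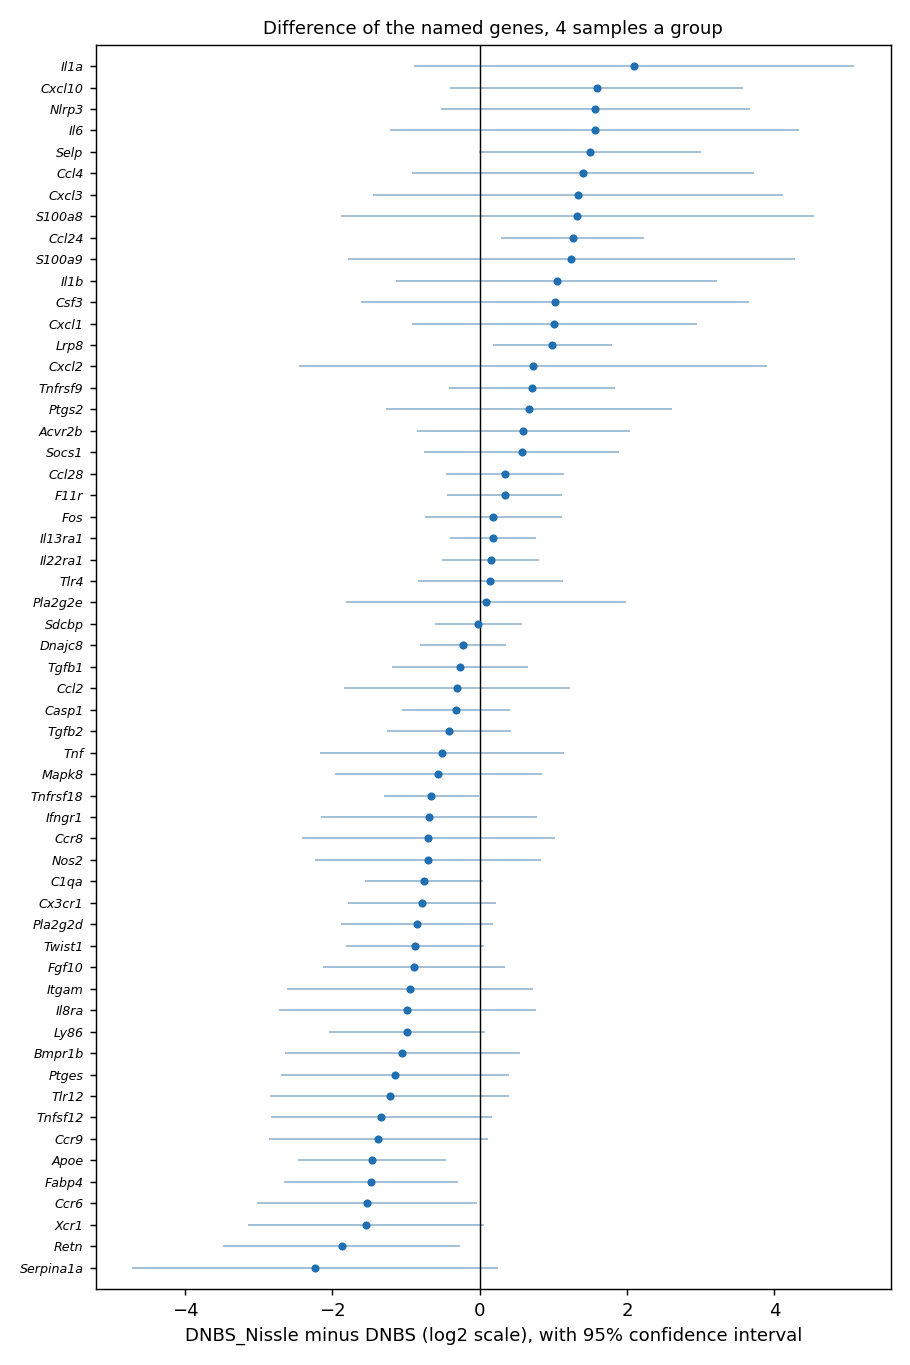
Difference DNBS_Nissle minus DNBS (log2 scale, points) with its 95% confidence interval from limma (bars) for the named genes that were tested. The cytokine and calprotectin genes have the widest intervals, and those of Apoe, Fabp4, Retn, Ccr6, Tnfrsf18, Lrp8 and Ccl24 leave out 0 before adjustment.

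On the reported scale the 8 samples did not fully sort by oral treatment. The differences between samples include the shift that Ywhaz gives to DNBS samples 2 and 4 and DNBS_Nissle sample 5. They were not computed without Ywhaz, so how much of the grouping follows that gene was not tested. The root mean square difference over the 444 genes read in all of them was 0.78 to 1.42 between DNBS samples (median 1.21), 1.24 to 1.58 between Nissle samples (median 1.36) and 0.64 to 1.59 between the groups (median 1.32). The closest pair of all, at 0.64, was DNBS sample 5 and DNBS_Nissle sample 7. DNBS sample 3 was closer on average to the Nissle samples (1.20) than to its own group (1.36). The same held for the 4 Nissle samples: samples 1, 4, 5 and 7 averaged 1.29, 1.43, 1.14 and 1.11 to the DNBS samples and 1.35, 1.48, 1.41 and 1.33 to each other. DNBS samples 2, 4 and 5 were closer to their own group. They averaged 1.01, 1.10 and 1.12 to it and 1.28, 1.29 and 1.20 to the Nissle samples. The median SD of a gene was 0.56 in DNBS and 0.68 in Nissle samples, and the SD was larger with Nissle in 249 of 444 genes (56.1%).

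**Figure D5:**
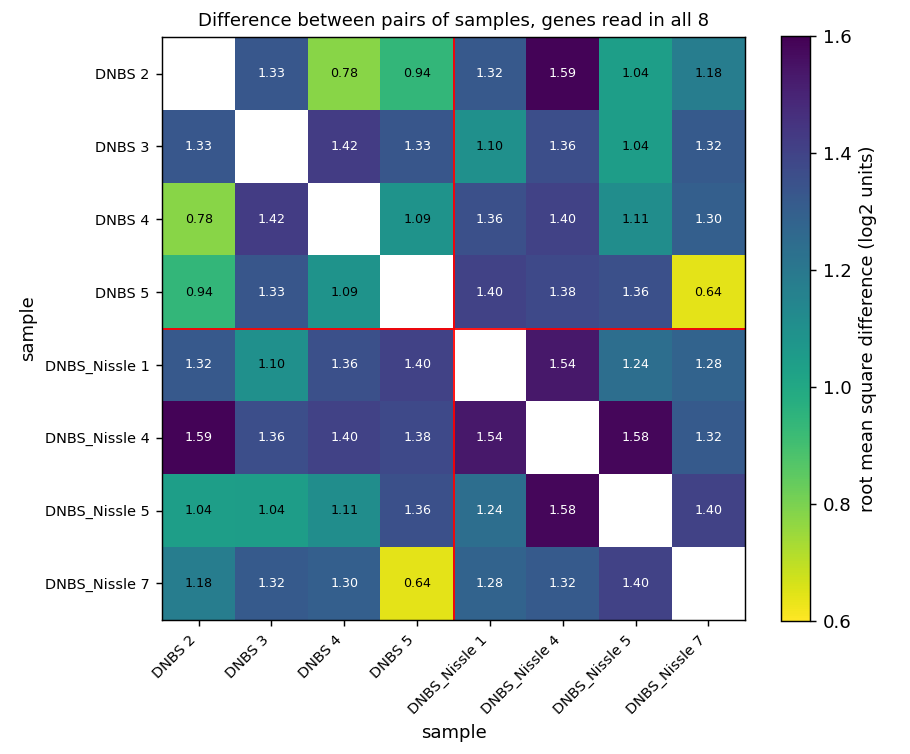
Root mean square difference in level (log2 units) between each pair of the 8 samples, over 444 genes read in all of them, with lines dividing the groups. DNBS sample 5 and DNBS_Nissle sample 7 are closest (0.64), and DNBS sample 2 and DNBS_Nissle sample 4 farthest (1.59).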

How the data were processed

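The authors deposited raw Ct values (unit: other, PCR cycles) for 648 assays and 584 genes in 16 samples, per the file headers. RNA was taken from colonic mucosa with the mirVana kit and read on an OpenArray NT cycler, per the labels' protocols. Thresholding software and filters are not given in the sources used here. A Ct of 40 stands for no amplification. A Ct says nothing of molecules counted, so no counting interval was computed.

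The scale was set by 13 reference genes measured in 19 assays, which include Ywhaz, Tbp, Rplp2, Ppia, Polr2a, Pgk1, Ipo8, Hprt1, Gusb, Gapdh and Actb. Some names are not reported here. Within groups the SD of Ywhaz was 3.47 cycles and of Rplp2 1.01, against 0.27 to 0.57 for the other 11. Endogenous controls (16 entries) were left out of the tests. For genes with more than 1 assay, the mean of the assays with the most detected samples was taken. Testing required detection in 3 or more samples of each group. A linear model was fitted with limma 3.58.1 in R 4.3.3 over all 16 samples (4 group means, 12 residual degrees of freedom) and adjusted by Benjamini-Hochberg over the tested genes, with a threshold of 0.05. The script was tested on simulated data. Detection differences (at least 3 of 4 against at most 1 of 4) were tested with two-sided Fisher's exact test over all panel genes, where the lowest p that 4 against 4 allows is 0.0286.

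The table had been edited: 194 values lay within 2e-06 of the mean over their group's remaining samples (61 in DNBS_Nissle sample 1, 12 in sample 4), and 532 had 4 or fewer decimals, where digits appear to be missing. Both were kept, and left out in alternatives. A value that lost digits and still has more decimals is not caught by this rule. Named genes were the 12 with the lowest p, those without overlap, detection differences, the highest and lowest member of each of 19 pathway lists, 16 fixed cytokine and receptor genes, and the 3 with the smallest SE. Members of 9 marker lists, and other members of a list under discussion, are named beside them. The comparison, members and lists were chosen with earlier results of these data known. Alternatives changed the reference genes, the Ct limit, the filter, the assays and the samples.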

Additional observations from a re-analysis of the deposited data

Results flagged for a closer look

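In 8 of 116 groups of 4 values checked, 1 sample lay far from the other 3 of its group, where chance gives about 1 in 20 groups. DNBS sample 3 accounted for 3 of them: Cxcl1 at −1.53 with the others between −4.28 and −4.11, Cxcl3 at 0.20 with the others between −4.98 and −4.22, and Il1b at 1.50 with the others between −3.45 and −2.81. DNBS_Nissle sample 4 accounted for 2: Ifngr1 at −2.71, against 0.29 to 0.85, and Mapk8, a stress kinase, at −5.67, against −2.77 to −2.71. DNBS_Nissle sample 5 was at −3.59 in Xcr1, against −7.28 to −6.77. DNBS_Nissle sample 7 was at 0.26 in F11r, against 0.91 to 0.94. DNBS sample 2 was at −3.91 in Tnf, against −4.65 to −4.57. None of these values was a filled-in one.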

How the results depend on the processing

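In every alternative run, 0 genes passed limma's adjusted threshold of 0.05. Before adjustment 7 came under it, and 4 to 32 with single samples left out (32 without DNBS_Nissle sample 5, 26 without DNBS sample 3). The number of detection differences was 7, and 2 to 7 with single samples left out (2 without DNBS sample 2). Of 57 named genes with a fitted difference, 42 kept their sign in all alternatives. Of the 15 that did not, Sdcbp difference (−0.02) was 0.08 without Ywhaz and Rplp2, 0.21 with Gapdh alone, 0.12 with the 3 most stable reference genes, 0.00 with all endogenous controls, 0.18 with the global mean and 0.09 with quantile normalization. Acvr2b difference (0.59) was −0.47 with a Ct limit of 30 and with any Ct under 40, and −0.14 where Ct above 28 was set to 28, with or without the filter: its undetected DNBS_Nissle sample 4 enters there. Ptgs2 difference was −0.06 without values of 4 or fewer decimals, which removes that of DNBS sample 5. The cause of the other changes was not tested. With single samples left out, the ranges that crossed 0 were −0.80 to 0.15 for Ccl2 difference, −0.15 to 1.97 for Cxcl2 difference, −0.04 to 0.66 for Fos difference, −1.04 to 0.14 for Ifngr1 difference, −0.06 to 0.32 for Il22ra1 difference, −0.83 to 0.17 for Mapk8 difference, −0.77 to 0.62 for Pla2g2e difference, −0.06 to 1.54 for Ptgs2 difference, −0.11 to 0.08 for Sdcbp difference, −0.59 to 0.06 for Tgfb1 difference, −0.02 to 0.37 for Tlr4 difference and −1.24 to 0.42 for Tnf difference.

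The groups share the sample numbers 4 and 5 alone. Deviations from the group means correlated at 0.31 and −0.18 in these pairs. In the crossed pairs of unlike number they correlated at −0.22 and −0.10. It cannot be told from so few pairs whether the samples share more than a number. With the number as a replicate block 0 genes passed (lowest limma adjusted p = 0.778), and 17 were under 0.05 before adjustment. Under it Ccl2 difference was 0.15, Ccr8 difference 0.56, Il8ra difference 0.01 and Sdcbp difference 0.19.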

Other observations

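Some genes separated the groups under other scalings and not under the reported one. Tacr1, the receptor of the neuropeptide substance P, was at −5.26, −5.62, −6.32 and −6.24 in DNBS samples 2, 3, 4 and 5 and at −5.38, −5.38, −5.16 and −5.17 in DNBS_Nissle samples 1, 4, 5 and 7, a difference of 0.59 ± 0.35 (SE) with the value of DNBS_Nissle sample 1 filled in. The groups did not overlap in Tacr1 without Ywhaz and Rplp2, with the 3 most stable reference genes or with the global mean. Hif1a, the hypoxia-response factor, was at −0.85, −0.81, −0.16 and −1.01 against 0.15, 0.15, 0.00 and −0.74, a difference of 0.60 ± 0.37, and separated the groups with the global mean and with quantile normalization. Healthy samples averaged −6.02 in Tacr1 and −1.61 in Hif1a.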
